A study of Bos taurus with 8 samples.

Results

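The genes described here carry cholesterol through the cell: they make it from acetyl-CoA, sense its level, bring it in from lipoproteins, move it out of lysosomes, store it as esters and send it out again. They are a list of 34 genes, chosen with earlier results of these data known. Their probes were found through the symbols that the platform annotation gives to the array probes. All 34 had at least 1 probe, 60 probes in all. Of these, 55 probes of 33 genes were bright enough to be tested, among 13592 named genes tested on the array. LIPE, the hormone-sensitive lipase that frees cholesterol from its esters, was the gene without a tested probe.

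Granulosa cells line the ovarian follicle, respond to follicle-stimulating hormone (FSH) and turn cholesterol into steroids. Cholesterol synthesis runs through the mevalonate pathway to farnesyl diphosphate and then through squalene and lanosterol to cholesterol. When sterols in the endoplasmic reticulum are low, SCAP escorts the SREBP factors to the Golgi, where they are released to switch on synthesis genes, while INSIG proteins hold SCAP back when sterols are high. When sterols are plentiful, oxysterols bind the nuclear receptors LXR, which switch on exporters.

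The cells came from follicles of 2 to 6 mm of slaughterhouse cattle and were cultured for 48 h. Treated cultures received FSH at 1 ng/ml for the last 4 h, and control cultures received none. No age or breed is stated. Each of 8 arrays carried RNA of a control culture in 1 dye and of an FSH culture in the other. The labels speak of 8 biological replicates. The stated design has 4 cultures without FSH and 4 with it, with the dyes exchanged between arrays. The labels number the arrays 1 to 4 in each dye orientation. Arrays of the same number were therefore taken as dye-exchanged pairs, averaged here and counted as 1 of 4 replicates.

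The number of arrays limits the precision. In each channel of each array, 71.4% to 84.2% of gene probes were brighter than the negative controls, and no value of a cholesterol gene was saturated. Nothing in the labels ties the control and FSH cultures of a number to the same ovaries, and the p-values here cover only the spread among these samples, which may be partly technical. In pooled cells, fewer cells of a type and less RNA per cell cannot be told apart.

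Of 9 granulosa markers, 8 were above the negative controls in every channel, among them INHA, AMH, CYP19A1 and FSHR, while FOXL2 was above them in 5 of 8 FSH and 7 of 8 control channels. Of these 9, 5 had a mean log2 ratio of FSH over control above 0. Their ratios had a median of 0.06 and ran from -0.18 for FOXL2 to 0.78 for CYP19A1. Of 3 theca markers 1 was above them in every channel, of 6 immune markers 3 and of 5 endothelial markers 3. All 5 fibroblast and stroma markers were above the negative controls in every channel. The log2 of their summed linear levels lay between 13.2 and 14.9 in controls and between 14.1 and 15.3 with FSH. All 5 stroma markers had a mean log2 ratio of FSH over control above 0, with a median of 0.24. The ratios of LUM, DCN and PDGFRA were highest in replicate 2 and lowest in replicate 3, as were those of SCARB1, NPC1 and SOAT1 below. Those of COL1A1 and COL1A2 were lowest in replicate 2. LUM was at 0.64, 1.26, -0.25 and -0.16 in replicates 1 to 4 and DCN at 0.67, 0.91, -0.11 and 0.24. COL1A2 was at -0.12, -0.13, 0.23 and 0.25 and PDGFRA at -0.18, 0.25, -0.19 and 0.24, while COL1A1 was above 0 in all 4 replicates. Of 4 endothelial markers tested, 2 were above 0, with a median of 0.00577. Among them KDR was at 0.81, 1.64, 0.0024 and 0.76 and above the negative controls in 8 of 8 FSH but 3 of 8 control channels, whereas CDH5 was at -0.06, TEK at -0.10 and VWF at 0.07. Of 3 smooth muscle markers 1 was above 0, and ACTA2 was at -0.38 ± 0.08 and below 0 in all 4 replicates (adjusted p = 0.251 with limma and 0.0301 in a fit of all arrays with replicate as a block). Of 5 immune markers tested 4 were above 0, with PTPRC at 1.35 in replicate 4 and between -0.02 and 0.10 in the others. The part of these markers in the results below was not tested.

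Replicate 3 stood apart. Over bright tested probes its ratios correlated with those of replicates 1, 2 and 4 at -0.12 to 0.30, while the latter correlated with each other at 0.43 to 0.72. These are correlations across probes, which are not independent replicates. For several of the genes below, the replicate 3 library that is labelled control lay as high as the FSH libraries. Values without replicate 3 are therefore given beside those of all replicates for the genes that turn on it. Leaving it out is a choice made with the outcome known, so errors and p-values without it are too small and are no independent test.

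None of the 33 cholesterol genes passed the test over the 4 replicate means. At an adjusted p under 0.05 by limma, 0 of 36531 probes (0%) were called, while at an unadjusted p under 0.05, 6.9% of probes were higher and 5.26% lower. By their brightest tested probe, the cholesterol genes reached an adjusted p of 0.231 at the lowest. Read in this way, 7 genes were higher and 2 lower with FSH at an unadjusted p under 0.05 by limma, against 7.9% and 8.07% of all named genes. Of the 33 genes, 24 had a mean ratio above 0, where 48.1% of all named genes did. Their median log2 ratio of FSH over control was 0.11, against -0.00466 over all named genes. The ratio was above 0 in all 4 replicates for 6 genes (10.7% of all named genes) and below 0 in all 4 for 4 genes (11.6%). Since the list was chosen with earlier results known, these counts and those below are descriptions beside the shares of all named genes.

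A fit of all 8 arrays, with replicate number as a block and with a term for dye, gave other calls. In that blocked fit SREBF1 and NR1H2 rose and MVK fell, which is 2 of 33 higher (2.66% of all named genes) and 1 lower (2.41%). Since the blocked fit assumes 1 correlation between paired arrays for every probe, its calls are weaker evidence than a test over 4 replicates. Without replicate 3 in the blocked fit, 9 genes were called higher (5.22% of all named genes) and 1 lower (5.58%). The 9 were SCARB1, NPC1, SOAT1, NR1H2, CYP51A1, IDI1, HMGCS1, INSIG1 and SCAP, and the gene called lower was MVK.

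**Figure D1:**
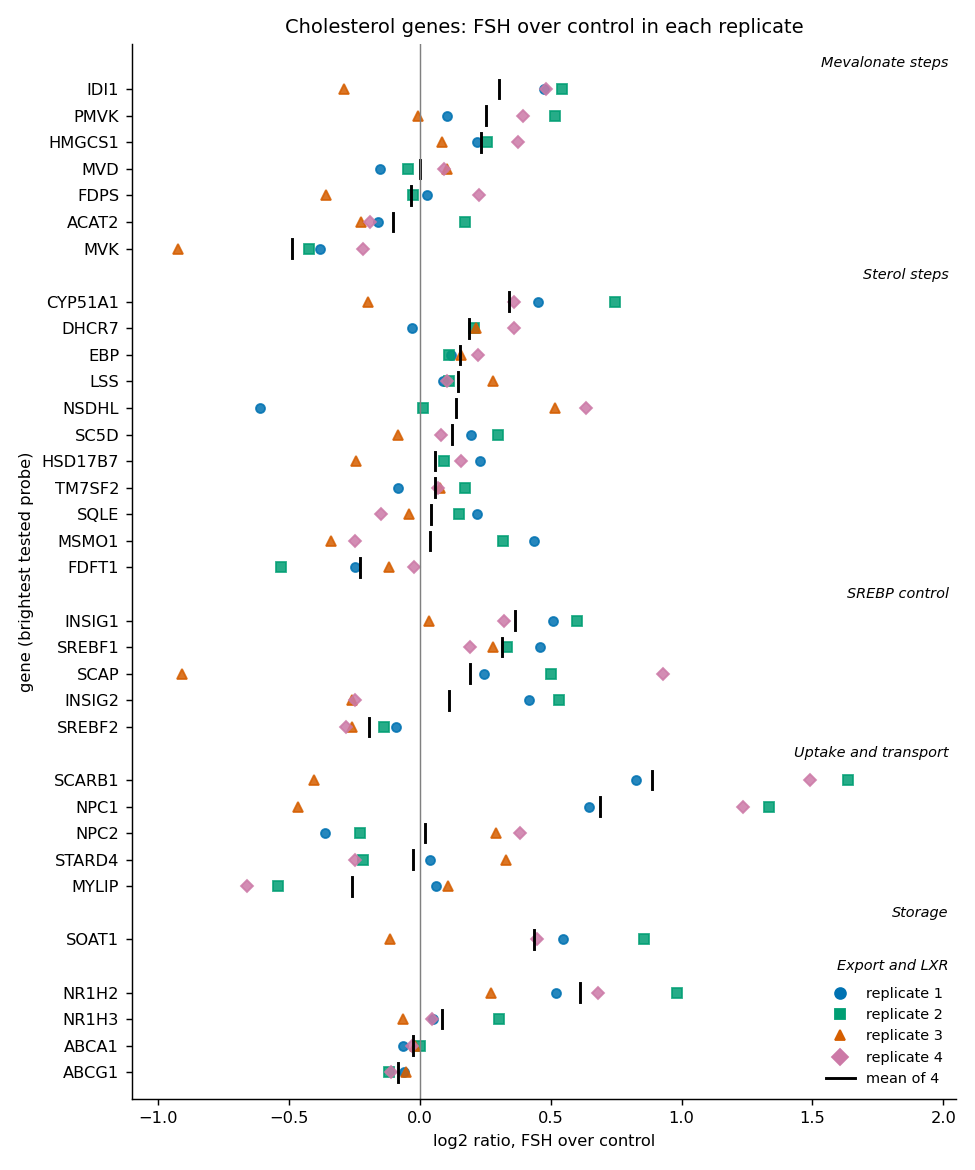
Log2 ratio of FSH over control (horizontal axis) of each cholesterol gene by its brightest tested probe, with 1 symbol for each of the 4 replicates and a black bar for their mean. SCARB1 and NPC1 reach 1.64 and 1.33 in replicate 2 and lie at -0.40 and -0.46 in replicate 3, while HMGCS1, EBP, LSS, INSIG1, SREBF1 and NR1H2 lie above 0 in all 4 replicates.

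The largest mean differences lay in uptake and in release from lysosomes. SCARB1, the receptor that takes cholesteryl esters from high-density lipoprotein, had log2 levels of 11.06, 10.36, 12.07 and 10.20 in control replicates 1 to 4 and of 11.88, 12.00, 11.67 and 11.69 with FSH. The FSH cultures lay close together, and control replicates 1, 2 and 4 lay below all of them, whereas control replicate 3 was the highest of the 8 cultures. This gave a log2 ratio of 0.89 ± 0.37 (SE, n = 4 replicates), which is 1.85-fold (unadjusted p = 0.0641 and adjusted p = 0.441 with limma; adjusted p = 0.12 in the blocked fit). It was 0.82, 1.64, -0.40 and 1.49 in replicates 1 to 4. Without replicate 3 it was 1.32 ± 0.18, or 2.49-fold (adjusted p = 0.116 with limma over 3 replicate means and 0.00514 in the blocked fit).

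NPC1, which passes cholesterol out of lysosomes, followed the same order of replicates. Its log2 levels were 8.43, 8.81, 9.34 and 8.24 in control replicates 1 to 4 and 9.08, 10.15, 8.88 and 9.48 with FSH. As for SCARB1, control replicate 3 was the highest control, and without replicate 3 every FSH culture lay above every control. The log2 ratio of NPC1 was 0.69 ± 0.33, or 1.61-fold (unadjusted p = 0.093, adjusted p = 0.492 with limma and 0.173 in the blocked fit). Without replicate 3 it was 1.07 ± 0.16, or 2.1-fold (adjusted p = 0.12 with limma and 0.0057 in the blocked fit).

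NPC2, the soluble partner that hands cholesterol to NPC1 in the lysosome, did not share this pattern. Its log2 ratio was -0.36, -0.23, 0.29 and 0.38 in replicates 1 to 4, with a mean of 0.02 ± 0.15, and the groups overlapped. MYLIP, a ubiquitin ligase that marks lipoprotein receptors for breakdown and so acts against uptake, had log2 levels of 9.0, 9.03, 8.38 and 9.04 in control replicates 1 to 4 and of 9.07, 8.49, 8.49 and 8.38 with FSH. It was high in control replicates 1, 2 and 4 and in FSH replicate 1, and low in the other 4 cultures. Its mean log2 ratio was -0.26 ± 0.16 (adjusted p = 0.602 with limma), and -0.38 ± 0.17 without replicate 3. STARD4, a cytosolic carrier of sterols, lay near background: its tested probe was above the negative controls in 4 of 8 FSH and 5 of 8 control channels, and a difference was not detectable at this signal.

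In storage, SOAT1, which joins cholesterol to fatty acids, had log2 levels of 12.37, 12.39, 12.81 and 12.03 in control replicates 1 to 4. With FSH they were 12.92, 13.25, 12.69 and 12.48. FSH was above control in replicates 1, 2 and 4 and below it in replicate 3, where the control was the highest of the 4. The log2 ratio was 0.44 ± 0.16, or 1.35-fold (unadjusted p = 0.0477, adjusted p = 0.405 with limma and 0.104 in the blocked fit). Without replicate 3 it was 0.62 ± 0.10, or 1.53-fold (adjusted p = 0.128 with limma and 0.0104 in the blocked fit). For LIPE, which acts in the other direction, the probe was above the negative controls in 0 of 8 FSH and 0 of 8 control channels, so no ratio is given.

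**Figure D2:**
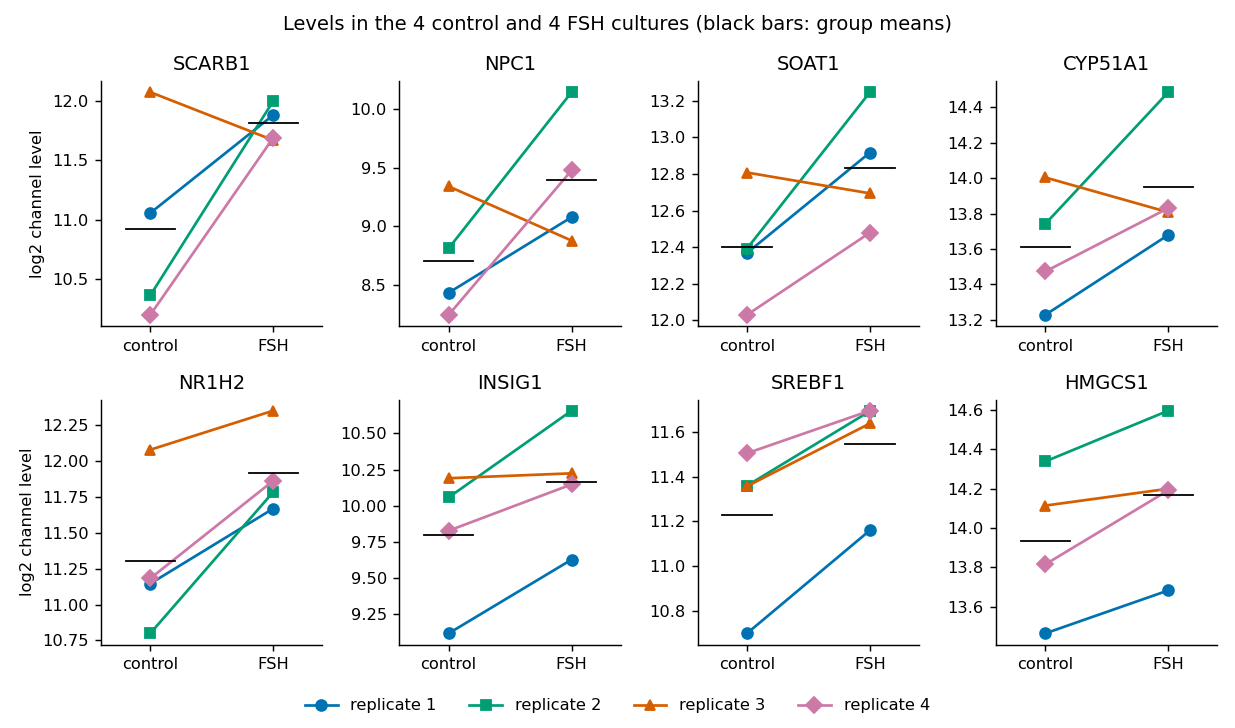
Log2 channel level (vertical axis, a separate scale for each gene) in the 4 control and 4 FSH cultures, with a line for each replicate and black bars for the group means. For SCARB1, NPC1, SOAT1 and CYP51A1 the control of replicate 3 is the highest control and its line slopes downward, while SREBF1, HMGCS1, NR1H2 and INSIG1 have 4 lines that slope upward.

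Among export genes and their regulators, NR1H2, which encodes LXR beta, differed in the same direction in every replicate. Its log2 levels were 11.15, 10.80, 12.08 and 11.18 in control replicates 1 to 4 and 11.67, 11.78, 12.35 and 11.86 with FSH. Control replicate 3 lay above FSH replicates 1, 2 and 4, so the groups overlapped, yet within each number FSH was higher. The log2 ratio was 0.61 ± 0.12, or 1.53-fold, and above 0 on 8 of 8 arrays (unadjusted p = 0.00477, adjusted p = 0.253 with limma; adjusted p = 0.0178 in the blocked fit). Without replicate 3 it was 0.73 ± 0.11 (adjusted p = 0.12 with limma and 0.00755 in the blocked fit). NR1H2 was among 20 cholesterol genes with 1 tested probe, as were SCARB1, NPC1, SOAT1, SREBF1, IDI1 and SCAP. No second probe bears on their values.

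NR1H3, which encodes LXR alpha, had log2 levels of 10.25, 9.93, 10.26 and 10.12 in control replicates 1 to 4 and of 10.30, 10.23, 10.19 and 10.17 with FSH. The cultures lay close together, with control replicate 2 the lowest, and the ratio was 0.08 ± 0.07 (adjusted p = 0.713 with limma), or 0.13 ± 0.08 without replicate 3. ABCG1, an exporter to high-density lipoprotein, had log2 levels of 7.39, 7.34, 7.41 and 7.42 in control replicates 1 to 4 and of 7.33, 7.23, 7.35 and 7.31 with FSH. It was lower with FSH within each number, by a log2 ratio of -0.08 ± 0.04 (adjusted p = 0.485 with limma), on a dim probe whose ratios are compressed. ABCA1, the exporter to lipid-poor apolipoproteins, was above the negative controls in 6 of 8 FSH and 6 of 8 control channels. Its ratio of -0.03 ± 0.04 on so dim a probe does not show that FSH had no effect.

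Among the genes that sense sterols, SREBF1 and INSIG1 had ratios above 0 in all 4 replicates. SREBF1, which encodes SREBP-1, had log2 levels of 10.70, 11.36, 11.36 and 11.50 in control replicates 1 to 4 and 11.16, 11.69, 11.64 and 11.69 with FSH. Replicate 1 was the lowest in both groups, and its FSH culture lay below 3 of the 4 controls. SREBF1 thus had a log2 ratio of 0.32 ± 0.06, or 1.24-fold (unadjusted p = 0.0033, adjusted p = 0.231 with limma; adjusted p = 0.0414 in the blocked fit). The ratio was above 0 on 7 of 8 arrays, and the gene was called on arrays with FSH in Cy3 alone but not on those with FSH in Cy5 alone. The SREBF1 ratio was as large without replicate 3, at 0.33 ± 0.07, where the blocked call ended (adjusted p = 0.051 in the blocked fit).

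INSIG1, which retains SCAP when sterols are high, had log2 levels of 9.12, 10.06, 10.19 and 9.83 in control replicates 1 to 4 and of 9.63, 10.66, 10.22 and 10.15 with FSH. Replicate 1 was again the lowest in both groups, and in replicate 3 the channels hardly differed. The log2 ratio was 0.37 ± 0.11, or 1.29-fold (unadjusted p = 0.0194, adjusted p = 0.32 with limma; adjusted p = 0.052 in the blocked fit). The dimmer probes of INSIG1 were at 0.40 ± 0.14 and 0.19 ± 0.08 and above 0 in all 4 replicates too. Without replicate 3 the brightest probe was at 0.48 ± 0.08 (adjusted p = 0.128 with limma and 0.0117 in the blocked fit).

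SREBF2, which encodes SREBP-2, the main activator of cholesterol synthesis genes, gave opposite answers on its 2 bright probes. By its brightest probe the log2 levels were 13.60, 13.77, 13.40 and 13.64 in control replicates 1 to 4 and 13.51, 13.64, 13.14 and 13.35 with FSH. This probe was lower with FSH on 8 of 8 arrays, with a log2 ratio of -0.19 ± 0.05 (unadjusted p = 0.016, adjusted p = 0.308 with limma; adjusted p = 0.139 in the blocked fit). The second SREBF2 probe had log2 levels of 12.63, 12.30, 13.08 and 13.82 in control replicates 1 to 4 and 13.23, 12.81, 13.43 and 14.69 with FSH. It was higher with FSH on 8 of 8 arrays, by 0.58 ± 0.09 (adjusted p = 0.217 with limma and 0.0233 in the blocked fit). The direction for SREBF2 is therefore not settled by these data.

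The remaining members of this group were not uniform between replicates. SCAP, the escort of the SREBP factors, had log2 ratios of 0.24, 0.50, -0.91 and 0.93 in replicates 1 to 4. Its mean was 0.19 ± 0.31 (adjusted p = 0.868 with limma and 0.869 in the blocked fit). Without replicate 3 the SCAP mean was 0.56 ± 0.15 (adjusted p = 0.226 with limma and 0.0372 in the blocked fit). INSIG2, the second retention protein, was above 0 in replicates 1 and 2, at 0.42 and 0.53, and below 0 in replicates 3 and 4, at -0.26 and -0.25.

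Of the 7 enzymes of the mevalonate steps, 4 had a mean ratio above 0 and 3 below, with a median of 0.000407. HMGCS1, which makes HMG-CoA at the head of the pathway, had log2 levels of 13.47, 14.34, 14.11 and 13.82 in control replicates 1 to 4 and 13.68, 14.59, 14.20 and 14.19 with FSH. The groups overlapped widely, but FSH was higher within each number and on 8 of 8 arrays. The log2 ratio was 0.23 ± 0.06, or 1.18-fold (unadjusted p = 0.0127, adjusted p = 0.299 with limma; adjusted p = 0.0813 in the blocked fit). Without replicate 3 it was 0.28 ± 0.06 (adjusted p = 0.17 with limma and 0.0468 in the blocked fit). A second HMGCS1 probe was at 0.21 ± 0.10, while the pair of dimmest probes were both at -0.03 (± 0.07 each).

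MVK, the kinase of mevalonate, lay the other way. Its log2 levels were 12.34, 12.49, 12.31 and 13.37 in control replicates 1 to 4 and 11.95, 12.07, 11.39 and 13.15 with FSH. Replicate 4 was the highest in both groups, and within each number FSH was lower, on 8 of 8 arrays. MVK thus had a log2 ratio of -0.49 ± 0.13, or 0.714-fold (unadjusted p = 0.0129, adjusted p = 0.299 with limma; adjusted p = 0.0356 in the blocked fit). It was -0.34 ± 0.07 without replicate 3 (adjusted p = 0.151 with limma and 0.0269 in the blocked fit). The dimmer MVK probes were at 0.08 ± 0.25 and -0.15 ± 0.05, so 1 of them did not share the direction.

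PMVK, the next kinase, had log2 levels of 7.83, 7.97, 7.78 and 8.05 in control replicates 1 to 4 and of 7.93, 8.48, 7.77 and 8.44 with FSH. FSH was higher in replicates 1, 2 and 4 and level with control in replicate 3, with a mean log2 ratio of 0.25 ± 0.10 (adjusted p = 0.433 with limma), and of 0.34 ± 0.10 without replicate 3. IDI1, which isomerises isopentenyl diphosphate, had log2 ratios of 0.48, 0.54, -0.29 and 0.48 in replicates 1 to 4. Its mean was 0.30 ± 0.16 (adjusted p = 0.537 with limma and 0.29 in the blocked fit). Without replicate 3 the IDI1 mean was 0.50 ± 0.05 (adjusted p = 0.108 with limma and 0.00994 in the blocked fit). FDPS, which makes farnesyl diphosphate, was at -0.03 ± 0.10, and its next brightest probes were both at -0.02, while its dimmest was at 0.15 ± 0.06. MVD, the decarboxylase, was at 0.000407 ± 0.06 and ACAT2, the cytosolic thiolase that begins the pathway, at -0.10 ± 0.08.

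Of the 11 enzymes from squalene to cholesterol, 10 had a mean ratio above 0, against 48.1% of all named genes. Their median was 0.12, with a range from -0.23 to 0.34. In replicate 3, 5 of the 11 were above 0. SQLE, TM7SF2, MSMO1, NSDHL, HSD17B7 and SC5D did not keep 1 sign under every setting run. CYP51A1, the lanosterol demethylase, was the highest by its brightest probe. Its log2 levels were 13.23, 13.74, 14.00 and 13.47 in control replicates 1 to 4 and 13.68, 14.49, 13.81 and 13.83 with FSH. The ratio was above 0 in replicates 1, 2 and 4 and below 0 in replicate 3. Its mean was 0.34 ± 0.16 (adjusted p = 0.488 with limma and 0.213 in the blocked fit). Without replicate 3 the mean was 0.52 ± 0.10 (adjusted p = 0.145 with limma and 0.0196 in the blocked fit). The other CYP51A1 probes were at 0.41 ± 0.18 and 0.68 ± 0.14. The dimmest of the 3 was higher with FSH on 8 of 8 arrays, replicate 3 included (adjusted p = 0.259 with limma and 0.0176 in the blocked fit).

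EBP, a sterol isomerase, had log2 levels of 9.72, 10.15, 10.08 and 10.15 in control replicates 1 to 4 and of 9.84, 10.26, 10.24 and 10.37 with FSH. LSS, which closes squalene epoxide to lanosterol, had levels of 7.5, 8.69, 7.90 and 7.98 in controls and of 7.59, 8.80, 8.18 and 8.09 with FSH. For both genes the groups overlapped and FSH was slightly higher within each number and on 8 of 8 arrays. The log2 ratios were 0.15 ± 0.04 for EBP and 0.15 ± 0.05 for LSS (unadjusted p = 0.0169 and 0.0379 with limma, adjusted p = 0.311 and 0.379). DHCR7, the reductase of the last step, had log2 levels of 8.88, 9.37, 9.16 and 9.03 in control replicates 1 to 4 and of 8.85, 9.57, 9.38 and 9.40 with FSH. It was above control in replicates 2 to 4, with a mean log2 ratio of 0.19 ± 0.07 (adjusted p = 0.42 with limma).

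FDFT1, squalene synthase, which commits farnesyl diphosphate to sterols, was the 1 enzyme of these steps with a mean below 0, at -0.23 ± 0.09 and below 0 in all 4 replicates (adjusted p = 0.439 with limma). Its dimmer probe was at -0.10 ± 0.09. SQLE, the squalene epoxidase, was at 0.04 ± 0.08 and MSMO1, the methylsterol oxidase, at 0.04 ± 0.16. NSDHL, a sterol dehydrogenase, ranged from -0.61 in replicate 1 to 0.63 in replicate 4. SC5D, the sterol desaturase, was at 0.12 ± 0.07, and at 0.19 ± 0.07 without replicate 3. HSD17B7, a keto-sterol reductase, was at 0.06 ± 0.09, and at 0.16 ± 0.06 without it. For TM7SF2, a sterol reductase, the dyes disagreed: its log2 ratio was -0.55 ± 0.06 on arrays with FSH in Cy5 and 0.66 ± 0.11 on arrays with FSH in Cy3, which leaves a mean of 0.06 ± 0.06.

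**Figure D3:**
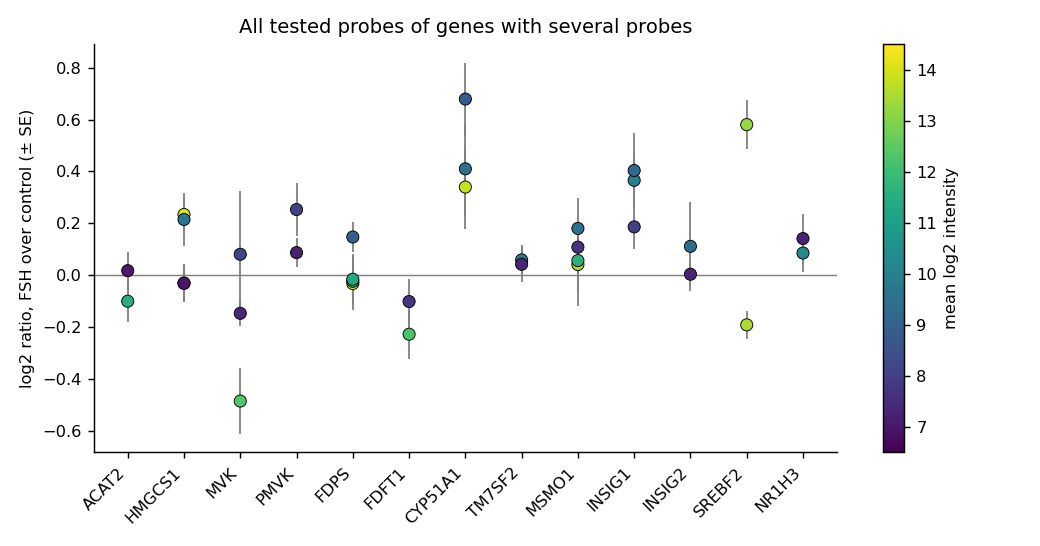
Log2 ratio of FSH over control with its SE (vertical axis) of every tested probe of the 13 cholesterol genes with several tested probes, coloured by the mean log2 intensity of the probe. All probes of a gene share a sign for 8 of the 13, among them CYP51A1 and INSIG1, while the 2 bright probes of SREBF2 lie at -0.19 and 0.58.

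For all 18 synthesis genes the range of the 4 control levels was larger than the mean ratio of FSH over control, which is near the 95.2% of all named genes. Many of them shared an order of the replicates, a pattern chosen for description after the levels were seen. Replicate 1 was the lowest among the controls and also among the FSH cultures for 11 of 18 synthesis genes, against 10% of all named genes. Replicate 2 was the highest in both groups for 10 of 18, against 13.4%. HMGCS1 is an example, with replicates 1 and 2 at both ends of the controls, 0.87 apart on the log2 scale, and of the FSH cultures, 0.91 apart. LSS spanned 1.18 in controls and 1.21 with FSH in the same order. The stroma markers COL1A1, COL1A2, DCN, LUM and PDGFRA ran the other way, with replicate 1 the highest in both groups. COL1A1, COL1A2 and PDGFRA were also lowest in replicate 2 in both groups, LUM only among controls and DCN in neither. PDGFRA was at 12.99, 10.38, 11.62 and 11.25 in control replicates 1 to 4 and at 12.81, 10.63, 11.43 and 11.48 with FSH. A link between these orders was not tested. The control and FSH samples of a number were hybridised together on the same arrays, so a difference between cultures and a difference between arrays cannot be told apart here.

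The dependence on replicate 3 was shared by a subset of the genes. The ratio was above 0 in replicates 1, 2 and 4 and below 0 in replicate 3 for 10 of 33 genes, against 8.89% of all named genes. These were SCARB1, NPC1, SOAT1, CYP51A1, IDI1, PMVK, HSD17B7, SC5D, SCAP and NR1H3. Control replicate 3 was the highest control for 11 of 33 genes, close to the 30% of all named genes. With all replicates, no cholesterol gene had its 4 FSH levels all above or all below the 4 control levels, which held for 1.6% and 1.66% of named genes. Without replicate 3, SCARB1, NPC1, SOAT1 and NR1H2 had all FSH levels above all controls (7.76% of named genes), and ABCG1 had them all below (8.4%).

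Set side by side, the steps had median log2 ratios of 0.09 for the 18 synthesis genes, 0.19 for the 5 genes of SREBP control, 0.02 for the 5 genes of uptake and transport and 0.03 for the 4 genes of export and LXR. SOAT1, alone in storage, was at 0.44. These medians are descriptions with no test, and each rests on few genes. The synthesis median was 0.10, 0.16, -0.06 and 0.13 in replicates 1 to 4, and that of SREBP control 0.42, 0.50, -0.26 and 0.19. The median of all named genes stayed between -0.02 and 0.01 in the 4 replicates. Within uptake the median hid opposite values, since SCARB1 and NPC1 were at 0.89 and 0.69 while MYLIP was at -0.26. Within export it hid the contrast between NR1H2 at 0.61 and the dim exporter probes near 0.

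**Figure D4:**
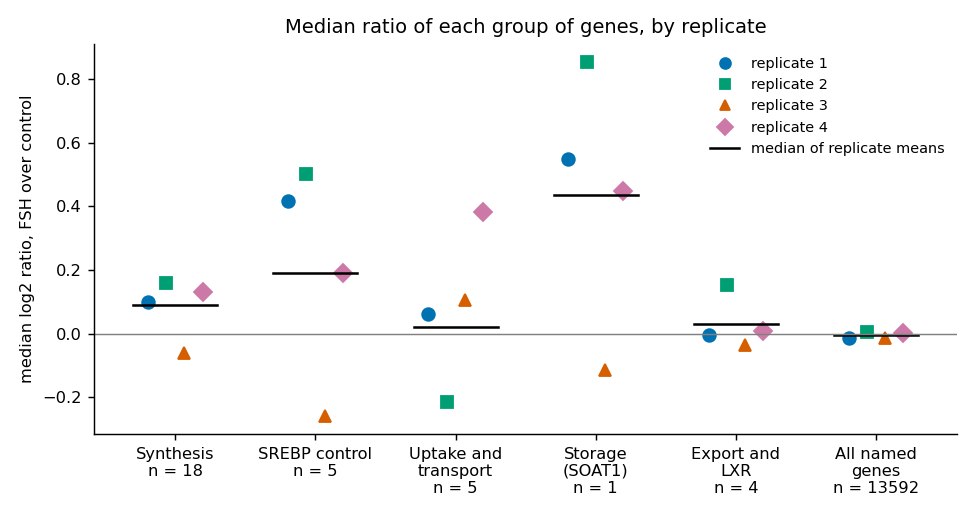
Median log2 ratio of FSH over control (vertical axis) over the genes of each step, with 1 symbol for each replicate and a black bar for the median of the 4-replicate means. The synthesis and SREBP control medians of replicate 3 lie at -0.06 and -0.26, below those of the other replicates, while the medians of all 13592 named genes lie near 0.

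Other genes of the pathway, from lists drawn up alongside the main one, were read in the same fit. None passed with limma over the replicate means. For the counts at an unadjusted p under 0.05 by limma, the shares over all named genes were 7.9% higher and 8.07% lower, as above. Of 11 further synthesis and SREBP genes tested, 6 were above 0, with a median of 0.02, and 2 were higher and 2 lower at that threshold. LBR, a sterol reductase of the nuclear envelope, was at 0.21 ± 0.05 (adjusted p = 0.29 with limma) and ERLIN2, an endoplasmic reticulum protein of sterol-dependent degradation, at -0.24 ± 0.07 (adjusted p = 0.303). Of 13 further genes of uptake, transport and ester turnover, 8 were above 0, with a median of 0.00725, with 2 called higher and 0 lower at that threshold. GRAMD1B, which carries cholesterol from the plasma membrane to the endoplasmic reticulum, had log2 ratios of 1.35, 2.27, 0.21 and 1.75 in replicates 1 to 4. Its mean was 1.39 ± 0.35 (adjusted p = 0.292 with limma and 0.0267 in the blocked fit). OSBP, an oxysterol-binding transfer protein, was at 0.35 ± 0.07 (adjusted p = 0.259 with limma and 0.033 in the blocked fit).

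Of 10 further genes of export and sterol oxidation, 1 was above 0 and 9 below, with a median of -0.06, and 0 were called at an unadjusted p under 0.05 by limma, nor at an adjusted p under 0.05 in the blocked fit. The pair of lowest p were ABCA7, a lipid transporter, at -0.30 ± 0.14 (adjusted p = 0.487 with limma), and NCOR1, a nuclear receptor corepressor, at -0.33 ± 0.18 (adjusted p = 0.547). Of 5 genes that use cholesterol for steroids, 4 were above 0, with a median of 0.48, with 2 called higher and 1 lower at the same limma threshold, against 7.9% and 8.07% of all named genes. FDX1, a ferredoxin that passes electrons to steroid-making P450 enzymes, was at 0.48 ± 0.07 (adjusted p = 0.204 with limma and 0.0323 in the blocked fit) and TSPO, an outer mitochondrial membrane protein, was at 0.33 ± 0.11 (adjusted p = 0.349). The gene called lower was HSD3B1, which makes progesterone from pregnenolone, with ratios of -0.41, -1.45, -0.07 and -1.16 in replicates 1 to 4. Its mean was -0.77 ± 0.26 (adjusted p = 0.359 with limma and 0.0629 in the blocked fit), and -1.01 ± 0.23 without replicate 3 (adjusted p = 0.18 with limma and 0.0169 in the blocked fit). STAR, which moves cholesterol into mitochondria, was at 0.19, 1.4, -0.33 and 0.71. Its mean was 0.49 ± 0.30 (adjusted p = 0.585 with limma and 0.303 in the blocked fit). Without replicate 3 the STAR mean was 0.77 ± 0.25 (adjusted p = 0.296 with limma and 0.0633 in the blocked fit). CYP11A1, which cleaves the side chain, was at 0.60, 1.55, -0.38 and 1.24. Its mean was 0.75 ± 0.34 (adjusted p = 0.474 with limma and 0.155 in the blocked fit). Without replicate 3 the CYP11A1 mean was 1.13 ± 0.20 (adjusted p = 0.141 with limma and 0.0106 in the blocked fit). Like SCARB1, both were above 0 in replicates 1, 2 and 4 and below 0 in replicate 3, as 8.89% of all named genes were.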

How the data were processed

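The deposited scanner tables give the raw spot intensity and local background in Cy3 and Cy5 for 8 arrays, and per the file headers no column is background-subtracted or normalised. No label or header names the scanner software. The authors' series-wide ratio table was not used. Total RNA was amplified in a pair of T7 rounds and labelled without an enzyme, per the labels' protocols.

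Mean intensities were corrected by median backgrounds (normexp, offset 50) and normalised by loess within arrays (limma 3.58.1, R 4.3.3). Every ratio was expressed as FSH over control, and same-numbered arrays of opposite dye were averaged to 4 replicates. Levels are log2 channel values after Aquantile scaling, and only levels of the same probe are compared. Probes above the 95th percentile of 153 negative control spots in either channel on at least 4 arrays (36531 of 43794) were tested against 0 with a two-sided moderated test (lmFit, eBayes), adjusted by Benjamini-Hochberg over all of them and a threshold of 0.05. An exact sign-permutation test over 4 replicates cannot go below 0.125. The median probe was 1.27 to 1.38 times as bright as the negative controls, so ratios of dim probes are compressed.

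Symbols came from the platform annotation (20025 current in RefSeq, 1524 updated from a synonym, 241 kept). As a check, the 2 brightest probes of 643 genes correlated at a median of 0.685 over the 8 cultures, against 0.0782 for probes of different genes. Replicate numbers come from the labels: array ratios of the same number correlated at 0.574 to 0.798, those of different number and opposite dye at -0.371 to 0.517, and those of different number and same dye at 0.0839 to 0.785, a range that overlaps the first. Blocked fits estimated a correlation between paired arrays of 0.72 with a dye term and 0.175 with none.

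All 34 genes were named, by the tested probe of highest mean intensity, with full values for the 3 of lowest p in each step and those with a mean ratio beyond 0.5. Levels of CYP51A1 were added after its values were seen, as was the second SREBF2 probe. Of the other lists, the 2 genes of lowest p are named, and of the steroid genes also the other 3 tested, added after their values were seen, as were the marker genes given with values. Members and lists were chosen with earlier results of these data known. Coordinates are left out because no genome build comes with the probe names. The fits were run on simulated data with independent normal noise for each probe. That noise holds no replicate that stands apart, so no result here rests on the simulation. Python 3.11.15, pandas 2.3.3 and matplotlib 3.10.9 drew the figures.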

Additional observations from a re-analysis of the deposited data

Results flagged for a closer look

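Among 99 groups of 4 values (the ratios, control levels and FSH levels of 33 genes), 9 held a sample far from the other 3 by Dixon's criterion, where chance gives about 1 in 20. No explanation was tested. Of the ratios, IDI1 in replicate 3 (-0.29) lay below the others (0.48 to 0.54), LSS in replicate 3 (0.28) above them (0.09 to 0.11), and ACAT2 in replicate 2 (0.17) above them (-0.23 to -0.16). Of the control levels, MVK in replicate 4 (13.37) was above the others (12.31 to 12.49), EBP in replicate 1 (9.72) below them (10.08 to 10.15), MYLIP in replicate 3 (8.38) below them (9.0 to 9.04) and STARD4 in replicate 3 (6.47) below them (6.91 to 6.95). Of the FSH levels, SREBF1 in replicate 1 (11.16) was below the others (11.64 to 11.69) and MYLIP in replicate 1 (9.07) above them (8.38 to 8.49).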

How the results depend on the processing

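The numbers of the arrays pair them, and the fit with the replicate block and dye term called 729 probes higher and 515 lower, against 0 over replicate means, and among the cholesterol genes 2 higher and 1 lower. The replicate block with no dye term called 823 and 603 probes, with 2 cholesterol genes higher and 1 lower, and the block with dye term without replicate 3 called 1390 and 1220, with 9 and 1. Arrays with FSH in Cy5 alone called 813 and 1162 probes, with 0 cholesterol genes higher and 1 lower, TM7SF2 at -0.55. Arrays with FSH in Cy3 alone called 350 and 59, with 1 cholesterol gene higher, SREBF1 at 0.54 (adjusted p = 0.0479 with limma), and 0 lower. These fits on 4 arrays of 1 orientation cannot separate dye from FSH. The cause of the other changes was not tested. Leaving out 1 replicate mean at a time called 0 cholesterol genes in every case.

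The uptake median was 0.35 when probes had to be above the negative controls in both channels of all arrays, which leaves fewer genes, and the export median was 0.18 with FSH in Cy3 alone. Leaving out 1 replicate at a time moved the synthesis median from 0.06 to 0.13, SREBP control from 0.09 to 0.33, uptake from -0.07 to 0.15 and export from -0.01 to 0.05. Of 33 genes, 18 kept 1 sign under every setting run and 15 did not. MVD turned to -0.00543 with no background correction, -0.00113 with offset 0, -0.0337 with median centring, -0.0344 in the block without replicate 3 and -0.032 with FSH in Cy5 alone. FDPS turned to 0.0147 with median centring, 0.0759 in the block without replicate 3, 0.0677 with FSH in Cy5 alone and 0.0183 as a mean of all tested probes, and SREBF2 to 0.19 as such a mean. NPC2 turned to -0.0172 with median centring, -0.0689 in the block without replicate 3 and -0.16 with FSH in Cy3 alone. FSH in Cy3 alone also turned MSMO1 to -0.00164, HSD17B7 to -0.17, SC5D to -0.0689, INSIG2 to -0.00949 and ABCA1 to 0.00868, and FSH in Cy5 alone turned NR1H3 to -0.18. When 1 replicate was left out, the sign also turned for MVD (-0.0344 to 0.0507), FDPS (-0.12 to 0.0759), SQLE (-0.0145 to 0.11), MSMO1 (-0.0911 to 0.17), NSDHL (-0.027 to 0.39), INSIG2 (-0.0301 to 0.23), SCAP (-0.0548 to 0.56), NPC2 (-0.10 to 0.15) and STARD4 (-0.14 to 0.0502). Signal limits STARD4, ABCA1 and LIPE, which lay near background.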
